A study of Mus musculus with 12 samples.

Results

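The 9 genes that mark smooth muscle cells and pericytes described here, Acta2, Actg2, Tagln, Myh11, Cnn1, Des, Mylk, Pdgfrb and Rgs5, were followed across 12 arrays of mouse embryonic kidney RNA. They were chosen by name, and all probes annotated to them on the Illumina Mouse WG-6 version 2 BeadChip were taken, 19 of the 45281 on the array. A probe was kept where its detection p, which sets it against the negative control beads of its array, was under 0.05 on 3 or more of the 12 arrays. This left 13 probes and 8 of the 9 genes, among 14882 genes and unnamed probes tested in all. The kidneys came from CD-1 embryos, either WT (Pkd1+/+) or littermates with both copies of Pkd1 null (Pkd1-/-), at E14.5 and E17.5. Pkd1 encodes polycystin 1, and the null allele is carried by every cell of the embryo, not by the kidney alone. The mutants had no cysts at E14.5 and marked cysts at E17.5. Each group had 3 arrays, each with the RNA of 1 pair of kidneys, and the array numbers used below are 34, 57 and 58 for E14.5 WT, 35, 59 and 65 for E14.5 mutants, 2, 38 and 41 for E17.5 WT, and 12, 40 and 42 for E17.5 mutants.

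Smooth muscle cells wrap arteries, the renal pelvis and the ureter, and they contract when calcium activates a kinase that phosphorylates myosin, which then pulls on actin filaments. Pericytes are related cells that lie on capillaries, and in the kidney they share an origin in the stroma with the mesangial cells of the glomerulus. Endothelial cells recruit both by secreting PDGF-B, which acts through the receptor encoded by Pdgfrb. Many contractile genes are switched on by serum response factor (SRF), which binds a DNA element known as the CArG box together with its partner myocardin. Whole kidneys were measured, so more muscle cells and more RNA per muscle cell cannot be told apart.

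The CArG box was looked for in the promoters because most of the contractile genes moved together with age. A box is CC, 6 letters that are each A or T, then GG, and it has the same form on both strands. Promoter sequence from RefSeq (GRCm38.p6) matched 5 of the 9 genes, Acta2, Cnn1, Des, Mylk and Rgs5. The 250 bases before the 1 start given there for each gene were searched. For Acta2, Cnn1 and Mylk that start lies inside the annotated gene, which for Acta2 spans chr19:34240336-34255585. None of the 5 held a full box, which 1.47% of 32851 promoters of all genes hold. With 1 of the inner letters free, Acta2 held 2 boxes and the other 4 genes none, against 8.59% of all promoters with at least 1. The Acta2 stretch (chr19:34255374-34255623, minus strand) and that of Des (chr1:75360042-75360291, plus strand) are shown because Acta2 was the 1 gene of the 5 that held such elements and Des the 1 that fell with age. Mylk and Rgs5, which rose in both genotypes, held none in the stretch searched. Sequence outside these 250 bases was not searched, so a link between the element and the change with age was not tested. Capitals mark the CArG-like elements, which end 74 and 24 bases before the Acta2 start given with the promoter sequence, not before the end of the annotated gene. They are matches of letters, and binding was not measured.
Acta2: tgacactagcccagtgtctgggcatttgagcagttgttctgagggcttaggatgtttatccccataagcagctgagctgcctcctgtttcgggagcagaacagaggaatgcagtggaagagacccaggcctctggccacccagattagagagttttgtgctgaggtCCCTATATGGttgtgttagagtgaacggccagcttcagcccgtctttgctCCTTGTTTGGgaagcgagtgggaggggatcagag
Des: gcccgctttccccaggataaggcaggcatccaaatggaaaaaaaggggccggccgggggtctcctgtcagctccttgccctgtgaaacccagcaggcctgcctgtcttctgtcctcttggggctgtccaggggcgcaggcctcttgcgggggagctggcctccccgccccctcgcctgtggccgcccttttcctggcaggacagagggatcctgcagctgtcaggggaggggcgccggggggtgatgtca

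The arrays were of similar quality, with 19397 to 20290 probes detected on each. Kidney genes were present throughout, since Pax8, a transcription factor of the nephron lineage, lay between 9.26 and 9.76 on the log2 scale. Pkd1 was read by 1 probe that was not lower in the mutants. Its log2 level was 0.80 higher in mutants at E14.5 (standard error, SE, 0.22, adjusted p = 0.723, limma) and 0.64 higher at E17.5 (SE 0.22, adjusted p = 0.135). The sequence that the null allele lacks is not given in the sources used here, so this probe does not check the labels. The Y-linked gene Eif2s3y lay between 10.51 and 11.11 on 10 arrays and at 4.67 and 4.57 on arrays 57 and 35, so each E14.5 group held 1 embryo that differed in sex from the rest. Array 2 had far more RNA of liver genes than the others, with a mean log2 level of 11.73 over 7 liver genes against 5.67 to 8.38.

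At E14.5, WT array 34 and mutant array 35 stood apart in the genes described here. Each was the highest of its group for Acta2, Actg2, Tagln, Myh11 and Mylk, and the lowest of its group for Des. Pdgfrb and Rgs5 did not follow this order, since array 34 was highest for Pdgfrb and lowest for Rgs5, and array 35 the reverse. The same arrays were the highest of their groups in genes of the urothelium, the lining of the renal pelvis and ureter. Over 9 such genes, a list added after the data had been seen, the mean log2 level was 6.81 on array 34, 6.36 on array 35 and 5.93 to 5.997 on the other E14.5 arrays. It was 7.61 to 8.07 at E17.5. Array 34 was also the highest of the E14.5 arrays in 8 proximal tubule genes, at 8.57 against 7.12 to 7.86. The part of these differences in the values below was not tested, and results that depend on arrays 34 and 35 are given with and without them.

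**Figure D1:**
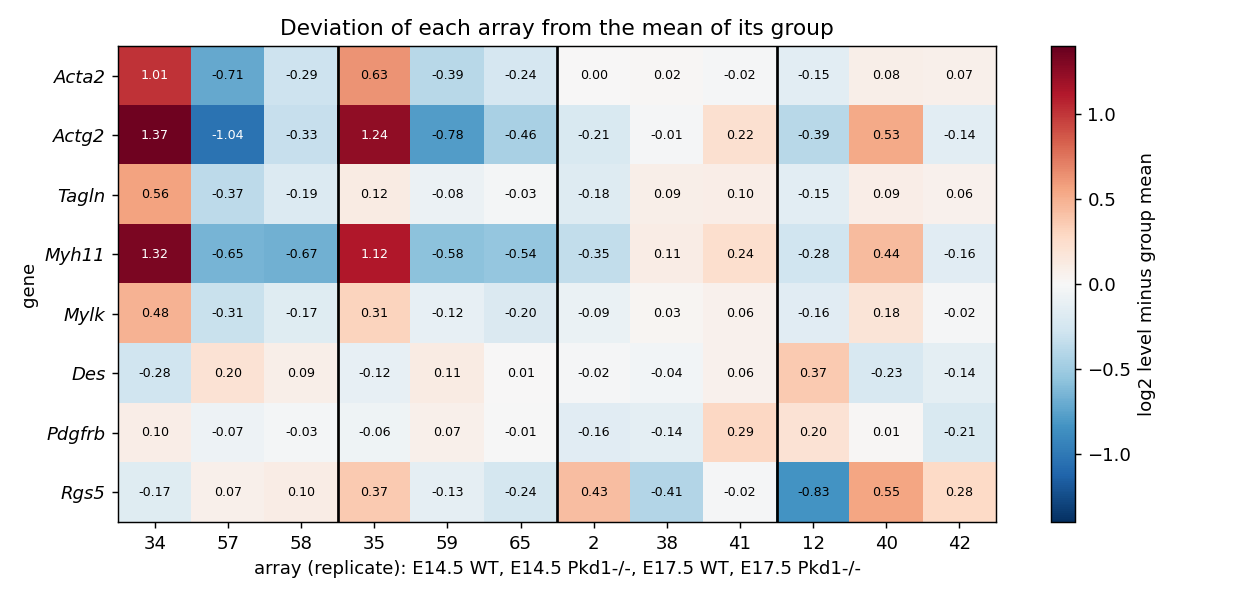
Deviation of each array from the mean of its group on the log2 scale, for the 8 measured genes (rows) and the 12 arrays (columns, by replicate number, with black lines between the groups). Arrays 34 and 35 are above their group means for the contractile genes Acta2, Actg2, Tagln, Myh11 and Mylk, by up to 1.37 for Actg2.

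Between E14.5 and E17.5 the smooth muscle and pericyte genes were mostly higher, in WT and in mutant kidneys alike. Of the 8 measured genes, 6 rose in each genotype, namely Acta2, Tagln, Myh11, Mylk, Pdgfrb and Rgs5, and 1 fell, Des. Actg2 did not pass the test in either. Tagln, counted here and below, passed the filter through the arrays where it was high, so the filter favoured its rise. With only probes detected on all 12 arrays, which leaves Tagln out, 5 of 7 genes rose and 1 fell in each genotype. The test was limma's over all 14882 features, with Benjamini-Hochberg adjusted p called under 0.05. Age changed many genes, 43.6% of all features in WT (20.2% higher and 23.5% lower) and 43.1% in mutants (21.7% higher and 21.4% lower). The median log2 fold change of the 8 genes was 1.17 in WT and 1.21 in mutants, against -0.05 and -0.02 for all features. With Tagln at its lower bound, the median in mutants was 1.13. In each genotype 7 of the 8 genes had age groups that did not overlap, all but Actg2, against 53.0% of features in WT and 56.1% in mutants. The age comparisons of WT and of mutants share no arrays.

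Among the filament proteins, Acta2 encodes smooth muscle alpha-actin, the main actin of vascular smooth muscle. Its log2 level at E14.5 was 13.51, 11.79 and 12.21 on WT arrays 34, 57 and 58, and 12.65, 11.62 and 11.78 on mutant arrays 35, 59 and 65. The E17.5 levels were 14.49, 14.51 and 14.47 on WT arrays 2, 38 and 41, and 14.18, 14.41 and 14.40 on mutant arrays 12, 40 and 42. By this probe, the brightest for Acta2, all 6 older kidneys were above all 6 younger ones. The 3 WT arrays at E17.5 differed very little on it (SD 0.02, n = 3) compared with those at E14.5 (SD 0.90, n = 3). On the dimmer Acta2 probes these 3 arrays differed more, for example 11.34, 10.97 and 11.01. On that dimmer probe array 34, at 10.44, was above mutant array 12, at 9.93. Acta2 rose by a log2 fold change of 1.99 in WT (SE 0.37, adjusted p = 0.00125, limma), or 3.97-fold. In mutants the log2 fold change was 2.32 (SE 0.37, adjusted p = 0.000486), or 4.99-fold.

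Acta2 and Mylk were read by several probes, which allowed the change to be measured more than once in the same RNA. The 4 kept Acta2 probes had log2 fold changes of 1.78 to 2.13 in WT and 1.88 to 2.79 in mutants. The 3 kept Mylk probes had log2 fold changes of 1.03 to 1.45 in WT and 0.83 to 1.41 in mutants. Every one of these 7 probes passed the test in both genotypes when all kept probes were tested on their own, with adjusted p of at most 0.00774. For Mylk the brightest probe gave the smallest change in each genotype. The probes that were not kept, 2 for Acta2 and 1 for Mylk, were detected on 0 arrays.

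**Figure D2:**
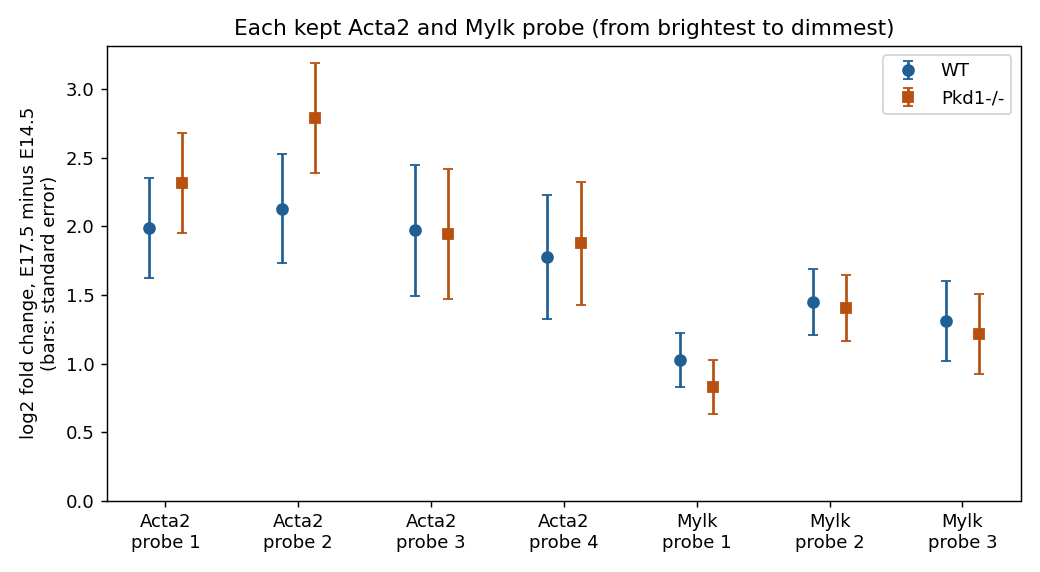
Log2 fold change from E14.5 to E17.5 (y axis, bars are standard errors) for each kept probe of Acta2 and Mylk (x axis, from the brightest to the dimmest of each gene), in WT (circles) and Pkd1-/- kidneys (squares). All 7 probes lie above 0, from 0.83 for a Mylk probe to 2.79 for an Acta2 probe, both in mutants.

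Actg2 encodes smooth muscle gamma-actin, the actin of visceral muscle such as that of the gut and the ureter. At E14.5 its log2 level was 9.96, 7.56 and 8.27 on WT arrays 34, 57 and 58, and 9.42, 7.40 and 7.72 on mutant arrays 35, 59 and 65. At E17.5 it was 9.46, 9.66 and 9.90 on WT arrays 2, 38 and 41, and 8.74, 9.66 and 8.99 on mutant arrays 12, 40 and 42. Arrays 34 and 35 thus reached the level of the older kidneys, while the other 4 younger ones lay below all the older ones. The log2 fold change was 1.07 in WT (SE 0.59, adjusted p = 0.165, limma) and 0.95 in mutants (SE 0.59, adjusted p = 0.219). Without arrays 34 and 35, it was 1.76 in WT (adjusted p = 0.00114) and 1.57 in mutants (adjusted p = 0.00229), and all 8 genes were then called in each genotype. That setting was chosen after the data had been seen, because these arrays were high in these genes. It therefore favoured a larger change, and its p-values add no support.

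Tagln encodes transgelin, an actin-binding protein that appears early in smooth muscle. Its kept probe was dim, and it was detected on 7 arrays, the 6 at E17.5 and array 34, so it passed the filter through the groups where it was high. The log2 level was 6.05, 5.13 and 5.31 on WT arrays 34, 57 and 58, and 5.34, 5.14 and 5.20 on mutant arrays 35, 59 and 65. The E17.5 levels were 6.74, 7.01 and 7.02 on WT arrays 2, 38 and 41, and 6.65, 6.89 and 6.85 on mutant arrays 12, 40 and 42. The older kidneys were all above the younger ones. In WT the log2 fold change was 1.43 (SE 0.20, adjusted p = 0.000193, limma), with 1 of the 3 younger arrays measured above background. In mutants the probe was not above background on any younger array, and Tagln was at least 2.46-fold higher at E17.5 (adjusted p = 0.000112), taken against the intensity that a detection p under 0.05 needs.

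Myh11 encodes the heavy chain of smooth muscle myosin, the motor that pulls on actin and the marker most restricted to mature smooth muscle. At E14.5 its log2 level was 7.87, 5.90 and 5.88 on WT arrays 34, 57 and 58, and 7.50, 5.80 and 5.83 on mutant arrays 35, 59 and 65. At E17.5 it was 8.55, 8.999 and 9.13 on WT arrays 2, 38 and 41, and 8.09, 8.81 and 8.21 on mutant arrays 12, 40 and 42. Arrays 34 and 35 lay between the other younger kidneys and the older ones. The log2 fold change was 2.34 in WT (SE 0.54, adjusted p = 0.00479, limma), or 5.08-fold, and 2.00 in mutants (SE 0.54, adjusted p = 0.0115). Without arrays 34 and 35 the log2 fold change of Myh11 was 3.00 in WT (adjusted p = 8.8e-06) and 2.56 in mutants (adjusted p = 3.63e-05). These arrays were left out because they were high in these genes. A larger change and a lower p were thus favoured by that choice, and they add no support.

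Mylk encodes myosin light chain kinase, the enzyme that starts contraction by phosphorylating myosin. Its log2 level at E14.5 was 12.35, 11.56 and 11.70 on WT arrays 34, 57 and 58, and 12.03, 11.60 and 11.52 on mutant arrays 35, 59 and 65. The E17.5 levels were 12.80, 12.93 and 12.95 on WT arrays 2, 38 and 41, and 12.38, 12.73 and 12.53 on mutant arrays 12, 40 and 42. Within each genotype the older kidneys were all above the younger ones. The log2 fold change was 1.03 in WT (SE 0.20, adjusted p = 0.00152, limma) and 0.83 in mutants (SE 0.20, adjusted p = 0.00545).

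Cnn1, which encodes calponin, an actin-binding protein of differentiated smooth muscle, had 1 probe and was detected on 0 arrays. Its RNA may lie below the level that the array detects. The second probes of Tagln and Myh11 were also detected on 0 arrays.

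Des ran the other way. It encodes desmin, the intermediate filament of muscle cells, which kidney pericytes and mesangial cells also carry, as do skeletal and heart muscle. Its log2 level at E14.5 was 8.77, 9.25 and 9.14 on WT arrays 34, 57 and 58, and 9.18, 9.41 and 9.30 on mutant arrays 35, 59 and 65. At E17.5 it was 8.08, 8.06 and 8.16 on WT arrays 2, 38 and 41, and 8.76, 8.17 and 8.25 on mutant arrays 12, 40 and 42. Every older kidney was below every younger one. Des had a log2 fold change of -0.95 in WT (SE 0.16, adjusted p = 0.000708, limma) and -0.90 in mutants (SE 0.16, adjusted p = 0.000973). Markers of skeletal muscle, which makes desmin too, were mostly dim. Of the 17 skeletal muscle genes on the array, 11 were measured, 0 rose, 2 fell in WT (Tnni1 and Myh8) and 5 in mutants (these and Myl1, Acta1 and Mylpf). The brightest of them, Tnnt1, lay between 8.09 and 9.30 on all arrays. Their mean log2 level was 6.38 to 7.14 at E14.5 and 5.87 to 6.61 at E17.5. Myl1, a light chain of fast muscle myosin, had the largest fall in mutants (log2 fold change -3.09, adjusted p = 0.00211), but in WT it was not called. In E17.5 mutants Myl1 was detected on 1 array and Acta1 on 0. The part of skeletal muscle RNA in the fall of Des was not tested.

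Pdgfrb and Rgs5 mark pericytes and other mural cells. Pdgfrb, the receptor through which PDGF-B recruits them, had a log2 level of 8.43, 8.26 and 8.31 on WT arrays 34, 57 and 58, and 8.17, 8.29 and 8.22 on mutant arrays 35, 59 and 65. The E17.5 levels were 8.70, 8.71 and 9.15 on WT arrays 2, 38 and 41, and 9.01, 8.82 and 8.60 on mutant arrays 12, 40 and 42. The older kidneys were all above the younger ones. The log2 fold change was 0.52 in WT (SE 0.14, adjusted p = 0.00942, limma) and 0.58 in mutants (SE 0.14, adjusted p = 0.00498).

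Rgs5 encodes a regulator that shortens G protein signalling and is abundant in pericytes. Its log2 level was 6.58, 6.82 and 6.85 on WT arrays 34, 57 and 58, and 6.82, 6.33 and 6.21 on mutant arrays 35, 59 and 65. At E17.5 it was 8.46, 7.61 and 8.01 on WT arrays 2, 38 and 41, and 7.10, 8.48 and 8.21 on mutant arrays 12, 40 and 42. Mutant array 12 was much lower than the other mutants of its age but still above all the younger kidneys. Rgs5 rose by a log2 fold change of 1.27 in WT (SE 0.32, adjusted p = 0.00753, limma), or 2.42-fold, and of 1.48 in mutants (SE 0.32, adjusted p = 0.00329), or 2.78-fold.

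**Figure D3:**
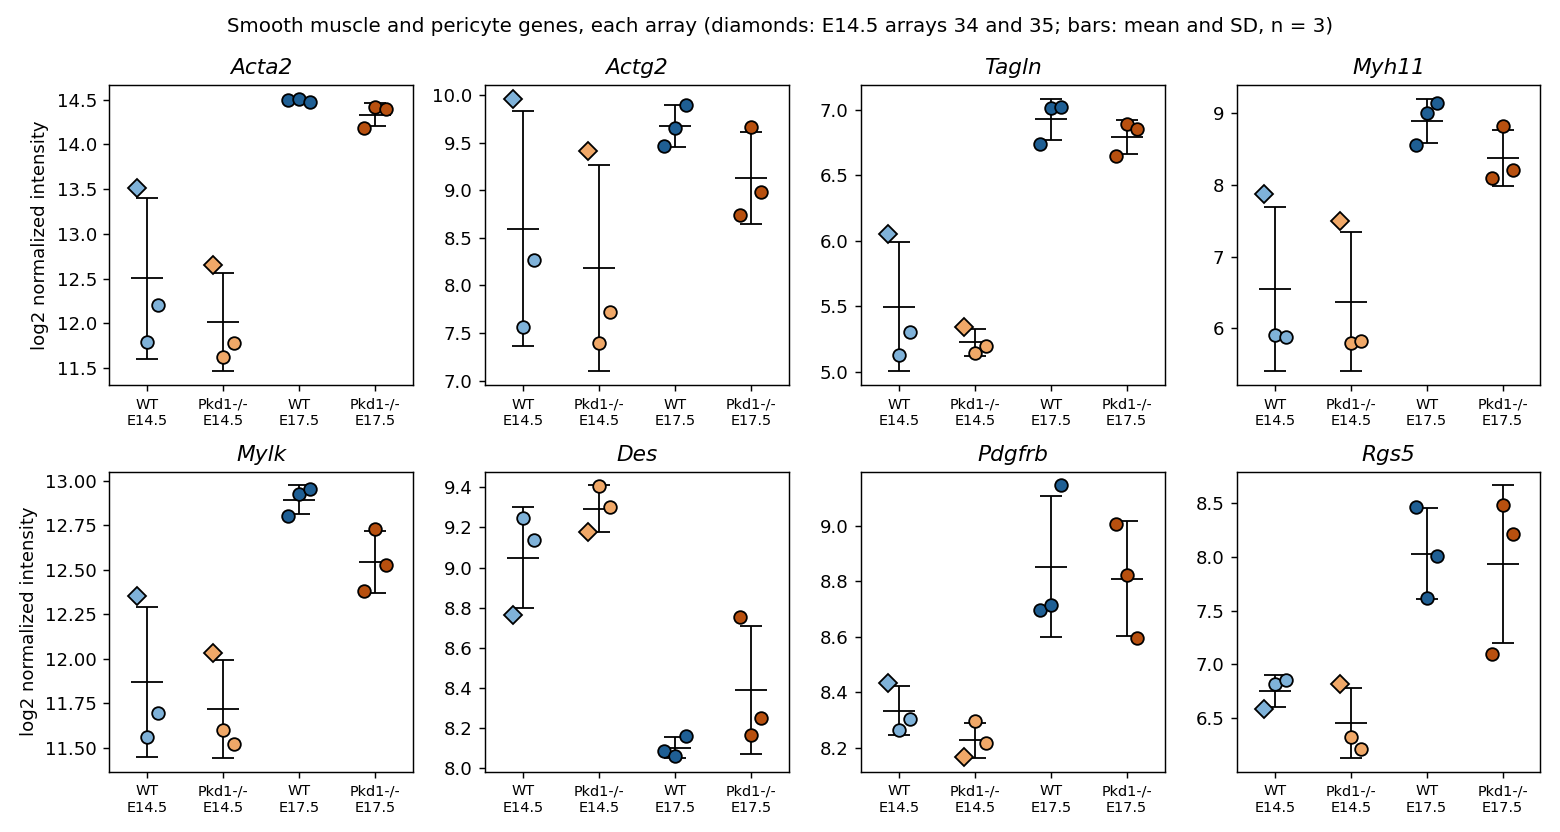
Log2 normalized intensity (y axis) of the 8 measured genes on each array, in the 4 groups of age and genotype (x axis); points are arrays, diamonds are the E14.5 arrays 34 and 35, and bars are the mean and SD of 3 arrays. Des is lower and the other genes except Actg2 are higher on every older array than on any younger one of the same genotype.

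The second question was whether these genes differed between mutant and WT kidneys of the same age. None of the 8 passed the test at E14.5, where 0.0538% of all features did, or at E17.5, where 3.16% did. At an unadjusted p under 0.05 the count was also 0 at both ages. Thresholds as in the methods, a 2-fold difference and p of at most 0.05 before adjustment, likewise gave 0 genes at each age. The lowest adjusted p was 0.9996 at E14.5 and 0.344 at E17.5. At E14.5 the log2 fold changes ran from -0.49 for Acta2 to 0.25 for Des, with a median of -0.22. At E17.5 they ran from -0.54 for Actg2 to 0.29 for Des, with a median of -0.14. The medians of all features were 0.00 and 0.02.

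At E17.5, 3 of the 8 genes had mutant and WT arrays that did not overlap, against 24.2% of all features, and at E14.5 none did, against 9.12%. These counts use the brightest probe of each gene. By that probe, Acta2 was lower in each mutant kidney at E17.5, with a log2 fold change of -0.16 (SE 0.37, adjusted p = 0.856, limma). The kept Acta2 probes ran from -0.65 to -0.04. On the probe at -0.04 the groups overlapped, and on the other kept probes they did not. Mylk was also lower in each by its brightest probe, with a log2 fold change of -0.35 (SE 0.20, adjusted p = 0.352). A dimmer Mylk probe, at -0.23, had groups that overlapped, and another, at -0.32, had groups that did not. Des was higher in each, with a log2 fold change of 0.29 (SE 0.16, adjusted p = 0.344). None of these differences passed the test, and the standard errors are large beside them. The order of the 4 groups was E14.5 mutant, E14.5 WT, E17.5 mutant, E17.5 WT for each of Acta2, Actg2, Tagln, Myh11, Mylk, Pdgfrb and Rgs5, with the lowest first. For Des it was reversed. No neighbours of the same age in that order passed the test.

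**Figure D4:**
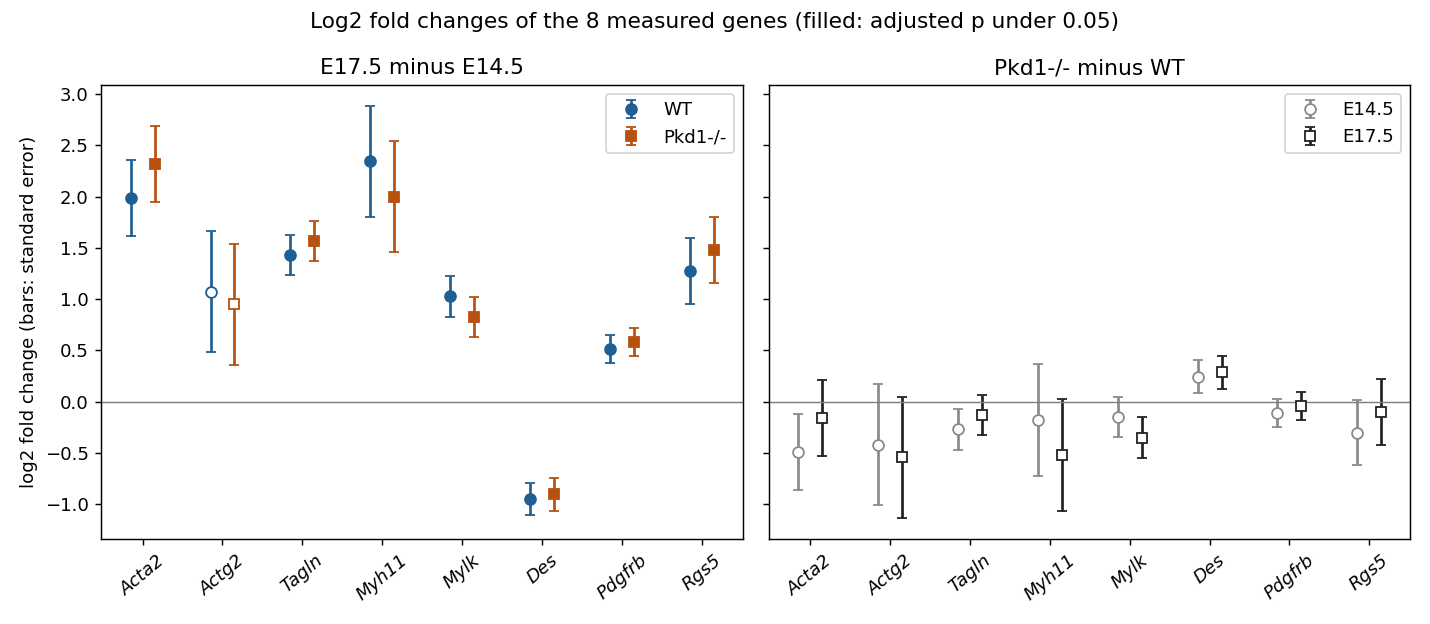
Log2 fold changes (y axis, bars are standard errors) of the 8 measured genes (x axis), between the ages in WT and Pkd1-/- kidneys on the left, and between Pkd1-/- and WT kidneys at E14.5 and E17.5 on the right. Filled symbols passed an adjusted p under 0.05; on the left all but Actg2 are filled, on the right none.

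Leaving out 1 array turned several genotype differences at E14.5. Without WT array 34, the log2 fold change was 0.015 for Acta2, 0.27 for Actg2, 0.011 for Tagln, 0.48 for Myh11 and 0.090 for Mylk, so all 5 changed sign. None passed the test with or without it. At E17.5 mutant array 12 was the lowest of its group for Acta2, Actg2, Tagln, Myh11, Mylk and Rgs5 and the highest for Des and Pdgfrb. Without it, the log2 fold change of Rgs5 went from -0.10 to 0.32 (adjusted p = 0.526, limma).

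The change with age was also compared between the genotypes. The difference between the 2 age changes, which is the same as that between the 2 genotype differences, was called for 0 of the 8 genes and for 0.175% of all features. At an unadjusted p under 0.05 the count was again 0 of 8. It ran from -0.34 for Myh11 to 0.33 for Acta2 on the log2 scale. The standard errors of these differences were 0.19 to 0.84.

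Part of the other genes of the contractile apparatus rose with age as well. Of 34 listed, 31 were on the array and 23 were measured. In WT 9 rose and 1 fell, with a median log2 fold change of 0.33, and in mutants 16 rose and 0 fell, with a median of 0.51. Of all features, 20.2% rose and 23.5% fell in WT, and 21.7% rose and 21.4% fell in mutants. These shares also stand beside the lists below. The share of the contractile list called in either direction in WT was near the 43.6% of all features. The 9 contractile genes that rose in WT also rose in mutants. Pdlim3, a protein of the actin-anchoring discs of muscle, had a log2 fold change of 1.52 in WT and 1.31 in mutants. Csrp1, a LIM protein of smooth muscle, had a log2 fold change of 1.23 and 1.57. Fhl1, another LIM protein of muscle, had 1.04 in WT, and Smtn, which encodes smoothelin of contractile smooth muscle, had 1.31 in mutants. Tpm2, a tropomyosin, had the single fall in WT (log2 fold change -0.28). Adjusted p for these genes was at most 0.029 (limma).

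Genes of pericytes and mural cells rose in part. Of 20 listed, 16 were measured, and 10 rose and 1 fell in WT while 6 rose and 1 fell in mutants. The share called in either direction in mutants was near the 43.1% of all features. The median log2 fold change of the list was 0.52 in WT and 0.47 in mutants. Higd1b, among the genes that rose in WT, was detected on 0 arrays at E14.5, so it passed the filter through the older kidneys. Aoc3, an amine oxidase of smooth muscle, had a log2 fold change of 2.53 in WT and 2.00 in mutants. Anpep, an aminopeptidase of pericytes that the brush border of the proximal tubule also carries, had 2.16 and 2.45. Rgs4, a relative of Rgs5, rose in WT (log2 fold change 1.38), where it was detected on 1 E14.5 array. Mcam, a surface molecule of mural and endothelial cells, rose by 0.66 in WT and 0.77 in mutants. Angpt1, the mural ligand of the endothelial receptor Tek, fell, with a log2 fold change of -0.92 in WT and -1.49 in mutants. The mesangial and juxtaglomerular list, with 4 genes measured, had 3 that rose in WT and 2 in mutants, led by the angiotensin receptor gene Agtr1a (log2 fold change 1.75 and 1.23).

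The ligand of Pdgfrb rose with it. Pdgfb, which endothelial cells secrete, had a log2 fold change of 1.03 in WT (SE 0.17, adjusted p = 0.000616, limma) and 1.07 in mutants (SE 0.17, adjusted p = 0.000501). It was the only 1 of the 4 measured genes of the PDGF ligands and alpha receptor to be called. Endothelial genes rose too, 11 of 11 in WT and 5 of 11 in mutants, with 0 that fell. Eng, a TGF-beta co-receptor, led in both, with a log2 fold change of 1.19 in WT and 0.99 in mutants, and was followed in WT by Flt1 (0.84) and Plvap (0.81). In mutants Cdh5 (0.67) and Robo4 (0.62) followed. The mean log2 level of the 11 genes was 9.70 to 10.09 at E14.5 and 10.17 to 10.53 at E17.5.

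No measured gene in the list of SRF and its partners was called higher. Of 7 measured genes of this list, 0 rose in either genotype, where 20.2% of all features rose in WT and 21.7% in mutants. With so few genes, a count of 0 says little about the list. Srf itself had a log2 fold change of -0.08 in WT (adjusted p = 0.483, limma) and 0.17 in mutants (adjusted p = 0.116), and Myocd, which encodes myocardin, had 0.13 (adjusted p = 0.548) and 0.27 (adjusted p = 0.211). Prrx1, a mesenchymal homeobox gene, fell in both, with a log2 fold change of -0.99 in WT and -0.97 in mutants, and Gata6 fell in WT with -0.86. Among 9 measured regulators of ureteric muscle, 4 rose and 3 fell in WT, and 3 rose and 3 fell in mutants. Tbx18, the transcription factor of the ureteric mesenchyme, fell by 1.17 on the log2 scale in WT and by 1.19 in mutants. At E17.5 it was detected on 1 array of each genotype. Aldh1a2, a retinoic acid synthase, and Tshz2 fell as well. Ppp3r1, a calcineurin subunit, had a log2 fold change of 0.86 and 0.88, Shh, the epithelial hedgehog signal, rose in WT by 0.62, and Bmp4 rose by 0.35 in WT and 0.53 in mutants, each on the log2 scale.

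**Figure D5:**
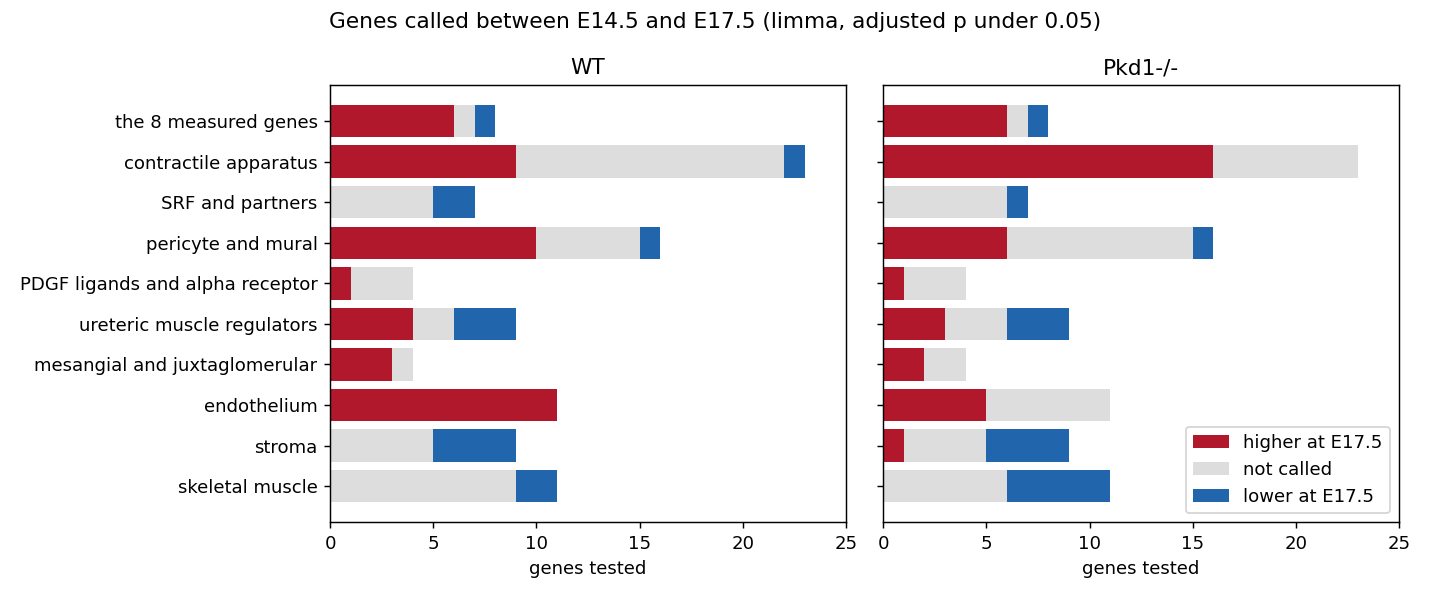
Number of measured genes (x axis) that were higher, lower or not called at E17.5 against E14.5, in WT (left) and Pkd1-/- kidneys (right), for the 8 measured genes and for each related list (y axis). In the contractile list 9 genes rose in WT and 16 in mutants, and in the list of SRF and partners none of 7 rose. Of all features, 20.2% rose in WT and 21.7% in mutants.

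Genes of the renal stroma fell in part. Of 9 measured, 4 fell in each genotype, Foxd1, Lum, Dlk1 and Meis1, and Col1a1 rose in mutants. Of all features, 23.5% fell in WT and 21.4% in mutants. The share of the list called in WT was near the 43.6% of all features called in either direction. Foxd1, the transcription factor of the renal stroma, had a log2 fold change of -1.53 in WT and -1.08 in mutants. The 10 lists of contractile, mural, stromal, endothelial and striated muscle genes and their regulators held 97 measured genes. Of these, 0 were called between mutant and WT at E14.5, at E17.5 or in the difference between them. The shares of all features called were also low, 0.0538%, 3.16% and 0.175% in the same order.

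Markers of other tissues and of other parts of the kidney moved with age as well. Of 7 genes listed for liver, 5 rose in WT (Ttr, Ahsg, Afp, Serpina1b and Rbp4) and 2 in mutants (Ttr and Afp). Ttr, which encodes transthyretin, led with a log2 fold change of 5.97 and 3.48. It was lower in mutants than in WT at E17.5 (log2 fold change -2.70, adjusted p = 0.0356, limma). On WT arrays 2, 38 and 41, Ahsg was at 13.23, 5.59 and 7.95 and Rbp4 at 8.41, 5.61 and 5.43. Their rise thus came mainly from array 2. Ttr was high on all of them, at 12.95, 11.51 and 11.67. Array 2, the array with the most liver RNA, deviated from the mean of its group by 0.43 for Rgs5, -0.35 for Myh11, -0.21 for Actg2, -0.18 for Tagln, -0.16 for Pdgfrb, -0.09 for Mylk, -0.02 for Des and 0.00 for Acta2 on the log2 scale. It was the lowest of the 3 E17.5 WT arrays for 5 of the 8 genes. Of 8 adrenal genes on the array, 2 were measured, and Mc2r, the receptor of corticotropin, fell with age in both genotypes. Of 3 cardiac genes measured, Myl4 was the brightest and 1 fell, Tnnc1 in mutants. Urothelial genes rose with age, 6 of 9 in each genotype and 0 fell (Psca, Upk2, Upk1b, Upk3a, Upk1a and Upk3b rose), led by Psca with a log2 fold change of 4.59 in WT and 4.09 in mutants. Of 8 proximal tubule genes, among which Lrp2 was the brightest, 8 rose in WT (Kap, Miox, Slc22a6, Slc34a1, Cubn, Lrp2, Aqp1 and Hnf4a) and the same without Miox, 7, in mutants, and Kap and Miox were lower in mutants than in WT at E17.5. The part of these tissues in the muscle gene values was not tested. Some of the genes named here were at background in 1 age group, so their changes are not exact. In E14.5 WT, Psca, Upk2 and Ttr were detected on 1 array each, and Kap, Miox, Ahsg and Rbp4 on 0. In E14.5 mutants Ttr was detected on 2 arrays, Upk2 on 1, and Psca, Kap and Miox on 0. Mc2r was detected on 0 E17.5 arrays of either genotype.

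The pattern of the 8 genes over the arrays was summarised by the mean of their standardized levels. Each of Acta2, Mylk, Myh11 and Tagln had a Pearson correlation with it of 0.97 to 0.99 over the 12 arrays, Pdgfrb 0.87, Actg2 0.86 and Rgs5 0.85, while Des had -0.95. The mean contains these genes, and the 12 arrays fall into 2 ages, so the values are a description. Among all other tested genes, Rabac1, Bmp3, Fmo1, Ecrg4 and Slc52a3 had the highest correlation with it, 0.99, 0.98, 0.98, 0.98 and 0.97 in that order. Of these, Rabac1 encodes an acceptor of prenylated Rab proteins, Bmp3 a bone morphogenetic protein and Fmo1 a monooxygenase. All 5 rose with age in both genotypes, and on each of them array 34 was the highest of the E14.5 WT arrays and array 35 the highest of the E14.5 mutant arrays. Both traits follow largely from the choice of these 5 by likeness over the same 12 arrays. Rabac1, for example, was at 10.99, 10.57 and 10.65 on WT arrays 34, 57 and 58, and at 10.85, 10.61 and 10.64 on mutant arrays 35, 59 and 65.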

How the data were processed

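The labels place the 12 BeadChip arrays in 4 groups of genotype and age, 3 arrays each. The authors deposited bead summary intensities from BeadStudio 3.1.3.0, not normalized between arrays, with a detection p-value beside each. On each array 31.3 to 34.0% of the probes had a value of 0 or less, so a background had been subtracted. Symbols came from the platform annotation. The authors also deposited intensities that they had normalized with beadarray in R 2.9.1, used here as an alternative. Their notes name limma, with no version.

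The deposited intensities were corrected with the normal-exponential model of limma 3.58.1 (R 4.3.3) using the detection p-values, with an offset of 16, log2 transformed and quantile normalized. Probes with detection p under 0.05 on at least 3 arrays were kept, and the brightest kept probe on average stood for its gene. A linear model of the 4 groups was fitted by limma to 14882 features (11616 named genes and 3266 unnamed probes), with empirical Bayes variances and Benjamini-Hochberg adjustment over all features. SDs and standard errors are on the log2 scale. Quantile normalization forces 1 distribution on all arrays, so a change is relative to the other genes, and the array number of 3 per group limits precision. The samples are separate kidney pairs. On simulated data, 83% of genes changed by 1 on the log2 scale between genotypes at E17.5 and 88% of those changed by 1 between ages in WT were recovered, each among 14882 features. The changed genes were drawn at random from all features, so these shares do not hold for the genes described here. Their standard errors differ widely, from 0.14 for Pdgfrb to 0.59 for Actg2.

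The 9 genes, the related lists and the tests were chosen with earlier results of these data known. Named genes were the 9 with their probes, up to 3 called genes per direction of each related list, the 5 genes most alike over the arrays, Pkd1, and from other tissues the brightest and called genes. Some genes outside this rule were named after their values were seen (Srf, Myocd, Pax8, Eif2s3y and the urothelial genes). Alternatives covered the background, the normalization, the offset, the filter, the probes, the fit and each array left out. Tests were two-sided.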

Additional observations from a re-analysis of the deposited data

How the results depend on the processing

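With 25 other settings, 12 of them leaving out 1 array, every called age change of a gene stayed called in the same direction, and no genotype difference was called for any of the 8 genes. Tagln has no value when probes must be detected on all 12 arrays. The number of genes called with age in mutants was 7 and became 4 under the study's thresholds (5 in WT), where an adjusted p of at most 0.05 also needs a 2-fold change. With each array left out in turn, 7 to 8 genes were called with age in each genotype and 0 to 0 by genotype at either age or in the difference between ages. Actg2 was called with age under array weights (log2 fold change 1.30 in WT and 1.36 in mutants), in WT without array 34 (1.76) and in mutants without array 35 (1.57). Scaling to the 75th percentile moved the median of all features with age in WT to -0.11, and no called direction turned.

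The genotype differences that changed sign were never called. With each array left out, the difference at E14.5 ran from -0.85 to 0.015 for Acta2, from -1.03 to 0.27 for Actg2, from -0.45 to 0.011 for Tagln, from -0.74 to 0.48 for Myh11 and from -0.31 to 0.090 for Mylk, above 0 for each without array 34, and for Myh11 also without array 59 (0.11) or 65 (0.095). At E17.5 it ran from -0.14 to 0.10 for Pdgfrb, above 0 without array 41 or 42 (0.064), and from -0.37 to 0.32 for Rgs5, above 0 without array 2 (0.12) or 12. With array weights it was 0.14 for Myh11 at E14.5, and 0.031 for Pdgfrb and 0.55 for Rgs5 at E17.5. The cause was not tested. Without a filter Cnn1 was not called in any comparison (log2 fold change -0.06 with age in WT and 0.00 in mutants). Probes near background, such as that of Tagln, have their change understated by the offset. No paired analysis was possible because the groups share no replicate numbers in the labels and the littermates are not tied to each other.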
